A study of Homo sapiens with 4 samples.

Results

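Zinc finger genes outside chromosome 19 were examined in RNA recovered with ORC1, the biggest protein of the complex that marks the sites where DNA replication starts. The genes were the protein-coding genes of GENCODE v44 whose symbol is ZNF followed by a number, with or without a final letter, which lie on any chromosome but 19 and whose counts summed to 200 or more over the 4 libraries. GENCODE lists 262 such genes outside chromosome 19. The counts held 258 of them, and 191 reached the sum, out of 63677 genes counted and 14645 tested. The 191 genes lay on 20 chromosomes, and all 191 passed the filter on low counts. The genes were thus chosen by their counts summed over IP and Input, and the immunoprecipitates gave 66.7% of all counts, so the choice used the same counts that are compared here. Only 1 of the 191 would miss 200 counts if all libraries had its Input level, and that gene was not called.

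HCT116 is a human colorectal carcinoma cell line. All cells had received, 48 h earlier, a plasmid for ORC1 fused to a triple FLAG tag, beside the untagged ORC1 of the cells, which the anti-FLAG antibody does not bind. Nuclear extracts were precipitated without crosslinking by an anti-FLAG antibody (IP), and RNA of the same extracts was kept without antibody (Input). There were 2 libraries of each group, with replicate numbers 1 and 2. Nothing in the labels says that the replicates were separate cultures, so p-values measure the spread between these libraries. No library from a control antibody or from untransfected cells was analysed here, so RNA held by beads or antibody cannot be told apart from RNA held by ORC1-FLAG. Libraries held between 9213877 (Input replicate 2) and 27483148 (IP replicate 1) counts. The epithelial markers EPCAM, KRT8, KRT18 and CDH1 were present at 46.8 or more scaled CPM (counts relative to the library total, scaled by TMM) in both Inputs, VIL1 was at 0.257 or less, and PTPRC and PECAM1 had at most 1 count in any library and ALB, a liver gene, at most 4. COL1A1, a fibroblast gene, had 126 to 470 counts per library.

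Classical zinc fingers are short protein loops that hold a zinc ion between a pair of cysteines and a pair of histidines, and tandem arrays of them read DNA or RNA. Most human ZNF genes arose by duplication, and many stand in clusters, the largest of which lie on chromosome 19. A large class carries a KRAB domain at the amino end, which recruits the corepressor TRIM28 (KAP1) and with it the histone methyltransferase SETDB1 and the heterochromatin proteins CBX1, CBX3 and CBX5. KRAB zinc finger proteins are known for silencing transposable elements. A smaller class carries a SCAN domain, through which the proteins dimerise, and others carry neither. ZNF proteins of the last kind include splicing, ribosome and spindle factors, as the symbol is given for the fingers alone.

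The fingers leave a repeated sequence in the RNA. In a tandem array, successive fingers are joined by a linker of 5 residues that is much the same in all of them, so the coding sequence repeats with a period of 84 bases. Of the 191 canonical coding sequences, 80 held at least 1 pair of the commonest linker exactly 1 finger apart. One finger with the linker on each side is shown for the 3 enriched KRAB genes and ZNF721 with the highest fold changes, and for the 2 genes with the lowest. These are the first such pairs in the canonical coding sequences, read 5′ to 3′ in the sense of the RNA from GENCODE v44 transcripts on GRCh38, with both linkers in capitals.
ZNF721: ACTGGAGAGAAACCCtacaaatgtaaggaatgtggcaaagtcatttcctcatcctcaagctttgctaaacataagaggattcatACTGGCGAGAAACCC
ZNF107: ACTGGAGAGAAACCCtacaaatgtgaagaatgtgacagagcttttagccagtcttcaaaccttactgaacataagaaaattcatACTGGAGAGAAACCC
ZNF92: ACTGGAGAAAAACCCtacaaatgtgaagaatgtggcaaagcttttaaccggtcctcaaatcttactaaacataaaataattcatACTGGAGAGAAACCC
ZNF182: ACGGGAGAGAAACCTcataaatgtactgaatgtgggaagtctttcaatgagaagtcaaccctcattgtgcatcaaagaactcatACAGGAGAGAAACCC
ZNF213: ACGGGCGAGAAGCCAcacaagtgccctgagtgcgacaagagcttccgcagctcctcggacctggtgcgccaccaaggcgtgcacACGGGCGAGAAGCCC
ZNF22: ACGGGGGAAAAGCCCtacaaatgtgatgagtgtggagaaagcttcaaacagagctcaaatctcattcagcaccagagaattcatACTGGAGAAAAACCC
The array was long in ZNF721 and ZNF107, with 23 and 16 fingers found, and short in ZNF22 and ZNF213, with 5 each. Other genes went the other way. ZNF638 and ZNF622, also among the 10 highest fold changes, had 2 and 3 fingers, and ZNF852 and ZNF774, among the 10 lowest, had 13 and 12. Over the 191 genes, the Spearman rho of the fold change with the number of fingers was 0.168. A finger was found in all but 7 of the 191 proteins, and the median was 9. The largest coding exon held a median of 78.6% of the coding sequence, against 25.3% over protein-coding genes tested.

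Setting IP against Input shows which of these RNAs were more frequent in the anti-FLAG precipitates than in the nuclear Inputs, relative to other genes. After TMM scaling, ZNF RNAs outside chromosome 19 were mostly near or slightly above the level of the Input. Of these, 19 rose past the threshold and none fell past it. Median levels over the 191 genes were 15.1 and 15.2 scaled CPM in Input replicates 1 and 2, and 19.7 and 22.02 in the IPs of the same numbers. Per kilobase of exon, the median Input level was 3.02 CPM, against 4.49 over protein-coding genes tested. Before TMM scaling, the 191 genes together held 0.572% and 0.613% of the counts in the IPs, and 0.622% and 0.636% in the Inputs. Their share was thus lower in both IPs, and the higher scaled levels rest on that scaling. The lowest gene had 12 counts (ZNF117, Input replicate 2), and the median gene 1296 over the 4 libraries.

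Enrichment was called by edgeR's quasi-likelihood test at a Benjamini-Hochberg adjusted p below 0.05 over all 14645 genes and a log2 fold change above 1 (IP over Input), and depletion below -1. Of the 191 genes, 19 (9.95%) were enriched, and 10.5% of all genes tested were. None was depleted, against 8.3% of all genes tested. Among tested genes that also reached 200 counts, 13.4% were enriched and 9.5% depleted. At an unadjusted p below 0.05, 24 passed 1 on the log2 scale and 1 passed -1, with no share of all genes taken. DESeq2 called 20 enriched, 16 of them among the 19, and 0 depleted, where 5.23% of its 31990 genes were enriched and 3.65% depleted. With limma voom, 20 were enriched, with all 19 among them, and 0 depleted, where 10.5% and 7.78% of all genes were. The replicate block, a fit that compares each IP with the Input of its own number, called 23 enriched, with all 19 among them, and 1 depleted, where 13.4% of all genes were called enriched and 13.4% depleted.

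At an adjusted p below 0.05 without the fold, 29 genes lay above 0 (13.0% of all genes tested did) and 1 below (9.96%). With the replicate block, 84 lay above 0 and 17 below, where 28.7% and 25.6% of all genes did. The 10 that passed the p above 0 but not the fold ranged from ZNF778 (0.75) to ZNF467 (0.99).

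Fold changes ran from -1.61 to 2.75 on the log2 scale, with a median of 0.31 and quartiles at -0.09 and 0.72, and 130 of 191 lay above 0. The median over all genes tested was 0.0079 and that over protein-coding genes 0.08. Ratios of each IP to the Input of its own number, on TMM-scaled CPM with 0.5 added, had medians of 0.32 in replicate 1 and 0.31 in replicate 2. The sign was the same in both replicates for 156 genes, 114 of them above 0 and 42 below, and the ratios of the replicates correlated across genes at Spearman rho = 0.768 (n = 191 genes, which share the libraries). In 11 genes the ratio was above 1 in both replicates, while 8.95% of all tested genes reached this, and no gene was below -1 in both, where 6.96% did. Of the 11364 tested genes with 200 or more counts, 11.1% were above 1 in both and 825 were below -1 in both. Both IP libraries lay above both Inputs in 94 genes (49.2%), against 33.2% of all genes tested, and below both in 20 (10.5%), against 31.9%. Among tested genes with 200 or more counts, 39.0% lay above both and 31.1% below both. These shares depend on the TMM scaling: with library size as the only scaling, the median of all genes fell to -0.59, that of the 191 genes was -0.31, and 4 were enriched and 12 depleted, where 2.59% of all genes were enriched and 22.2% depleted.

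**Figure D1:**
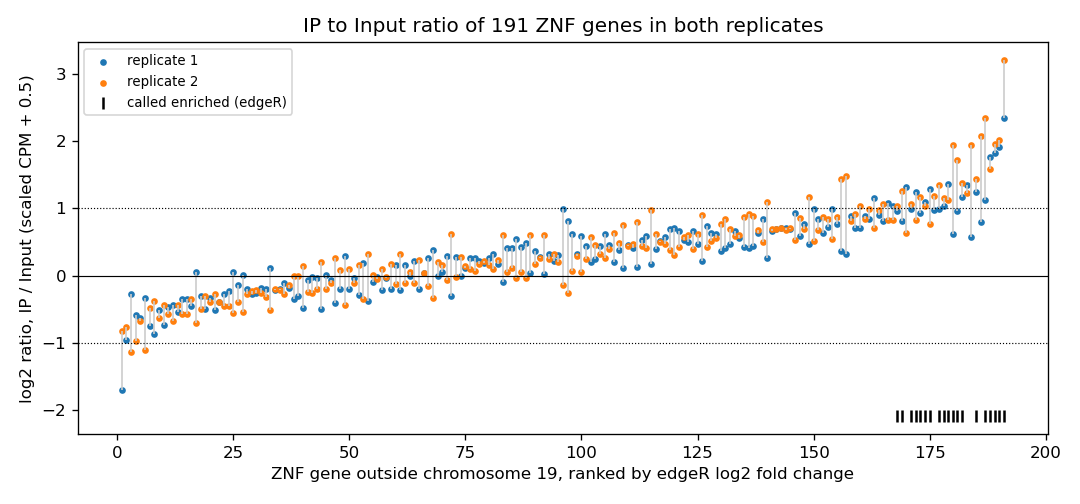
Log2 ratio of IP to Input (scaled CPM plus 0.5) of each of the 191 ZNF genes outside chromosome 19 in replicate 1 (blue) and replicate 2 (orange), ranked by the edgeR log2 fold change, with a grey line joining the replicates and black ticks under the 19 enriched genes. Dotted lines mark 1 and -1; the right end rises to 3.21 in replicate 2 (ZNF721), and only ZNF22 has a fold change beyond -1 at the left end.

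The 133 ZNF genes of chromosome 19 that reached the same sum had a median of 0.37, with 19 enriched (14.3%) and 5 depleted (3.76%). The difference between the chromosomes was not tested. Outside chromosome 19 the proteins had fewer fingers (median 9 against 12), at like coding lengths (median 1770 and 1755 bases).

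A KRAB domain was found by its sequence pattern in the canonical protein of 76 genes, a SCAN domain in 18 (6 of them with both), and neither in 103. Enrichment was called in 4 of the 76 KRAB genes (5.26%; median log2 fold change 0.36), in 0 of the 18 SCAN genes (0.24) and in 15 of the 103 with neither (14.6%; 0.31). The share was 10.5% over all genes tested and 13.4% over those with 200 or more counts, and the difference between classes was not tested. The quartiles of the KRAB genes (-0.10 to 0.68) and of the genes with neither (-0.07 to 0.78) overlapped almost entirely. A protein pattern in 1 transcript can miss a domain that another isoform carries.

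The 4 enriched KRAB genes were ZNF107, ZNF92, ZNF182 and ZNF425. ZNF107 (ENSG00000196247, chr7:64666099-64711577, + strand, GRCh38 as all coordinates here), the highest of the class, stood at 35.9 and 29.5 scaled CPM in the IPs (replicate 1 first, as in all pairs below), and at 9.11 and 6.85 in the Inputs. Both IP values were far above both Input values, a log2 fold change of 2.03 ± 0.26 (SE, n = 2 and 2; edgeR adjusted p = 0.0105). ZNF92 (chr7:65373799-65401136, + strand) stood at 33.5 and 34.9 in the IPs and at 15.1 and 6.42 in the Inputs. Its Inputs differed by more than its IPs, and the fold change was 1.65 ± 0.39 (edgeR adjusted p = 0.0268). ZNF182 (chrX:47974851-48003989, - strand) gave 14.9 and 16.4 in the IPs against 6.01 and 5.73 in the Inputs, with libraries of a group close together (1.41 ± 0.24). ZNF425 was low throughout, with 7.01 and 8.25 in the IPs and 3.15 and 3.42 in the Inputs (1.21 ± 0.31), and its call was lost without any 1 of the 4 libraries. ZNF182 shares 8.62% of its exonic bases with ZNF630 on the same strand.

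ZNF354B, also with a KRAB domain, had 6.10 and 11.7 scaled CPM in the IPs and 3.95 and 2.65 in the Inputs. The IP values were above the Inputs but far apart, and its 1.41 ± 0.42 missed the call (edgeR adjusted p = 0.0502; 0.00772 with the replicate block). The lowest KRAB gene was ZNF213, which also has the SCAN domain and was the lowest of that class too (chr16:3129777-3142804, + strand). It stood at 6.20 and 7.51 in the IPs and 12.5 and 13.2 in the Inputs, so the groups did not overlap. Its log2 fold change of -0.91 ± 0.25 passed the adjusted p (0.0429 by edgeR) but not the fold, and it was the only 1 of the 30 genes with an adjusted p below 0.05 that lay below 0 without the replicate block. At the upper end of the SCAN class, ZNF174 stood at 15.8 and 14.7 in the IPs and 9.51 and 8.81 in the Inputs (0.73 ± 0.23, edgeR adjusted p = 0.0624).

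ZNF721 had the highest fold change of the 191 (ENSG00000182903, chr4:425815-499156, - strand). The IPs gave 2638 and 2303 counts and the Inputs 427 and 160. On the scaled level this was 127 and 131 CPM against 24.5 and 13.7, so the IPs were alike and the Inputs were not. The replicate ratios were 2.35 and 3.21 on the log2 scale, and the fit gave 2.75 ± 0.32 (edgeR adjusted p = 0.0105). Of its exonic bases, 25.8% also belong to the pseudogene ABCA11P on the same strand, so some of these counts cannot be assigned between the pair.

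Among the other enriched genes without either domain, ZNF638 stood out by its level. ZNF638, a nuclear RNA-binding protein that acts in splicing and in silencing of unintegrated viral DNA, stood at 510 and 488 scaled CPM in the IPs and 143 and 125 in the Inputs. The replicates of a group lay close together, and its 1.90 ± 0.25 (edgeR adjusted p = 0.0105) rested on 23143 counts. ZNF622, a maturation factor of the large ribosomal subunit, stood at 133 and 113 in the IPs and 38.7 and 37.6 in the Inputs, with 1.69 ± 0.23 (edgeR adjusted p = 0.0105). Its coding sequence is short at 1431 bases. ZNF106, an RNA-binding protein, gave 327 and 249 in the IPs and 126 and 114 in the Inputs (1.26 ± 0.26). ZNF830, which associates with the spliceosome, gave 26.9 and 27.3 against 13.9 and 11.8 (1.07 ± 0.23), from a coding sequence of 1116 bases, the shortest of the 19, and its call was lost without Input replicate 2. The IP values of all 19 enriched genes lay above both Input values. The genes were called from these same 4 libraries, so this adds no support to the calls.

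Genes with many fingers or long coding sequences were among the rest. ZNF407, at 43.6 and 52.9 scaled CPM in the IPs and 19.1 and 19.9 in the Inputs, rose by 1.31 ± 0.23, and ZNF292, a tumour suppressor, with 109 and 137 against 54.6 and 53.7, by 1.19 ± 0.24. ZNF318, a cofactor of the androgen receptor that is also needed for the IgD transcript of B cells, stood at 149 and 135 in the IPs against 69.2 and 65.4 (1.08 ± 0.22). ZNF462 and ZNF236, with 33 and 30 fingers, had fold changes of 1.04 ± 0.22 and 1.02 ± 0.25. ZNF711, linked to intellectual disability on the X chromosome, had the least even replicates of the 19, with ratios of 0.61 and 1.95. ZNF277 (1.30), ZNF502 (1.09), ZNF276 (1.04) and ZNF678 (1.02) completed the list. ZNF276 shares 32.3% of its exonic bases with FANCA on the opposite strand, and the strand setting of the counting is not stated. ZNF236, ZNF276, ZNF462 and ZNF678 lay within 0.05 of the threshold of 1. Without Input replicate 2 the calls of ZNF277, ZNF318, ZNF462, ZNF678 and ZNF711 were lost, without Input replicate 1 those of ZNF236, ZNF276 and ZNF502, without IP replicate 1 those of ZNF318, ZNF502 and ZNF678, and without IP replicate 2 those of ZNF236 and ZNF502.

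**Figure D2:**
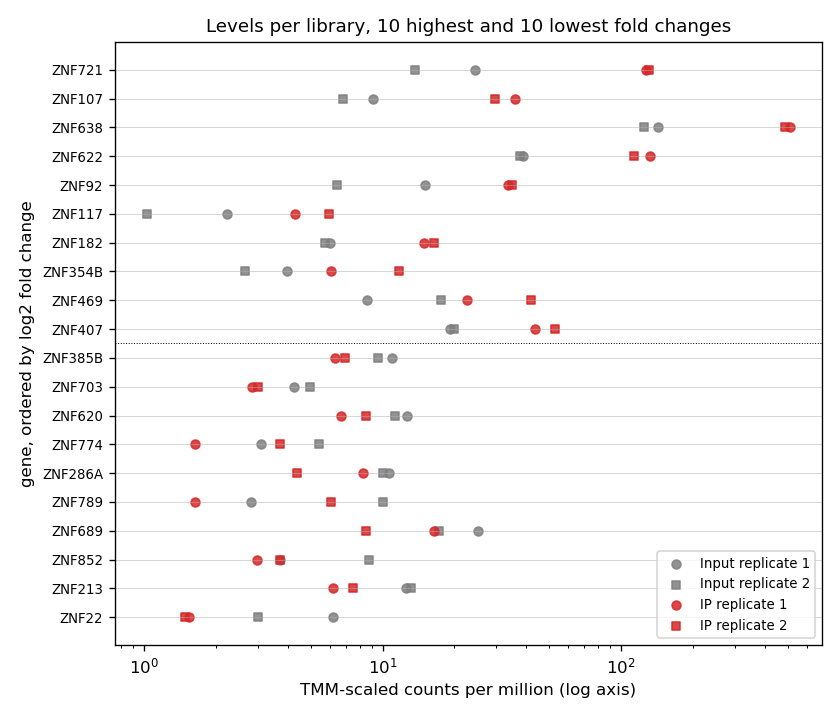
TMM-scaled CPM (log axis) in each of the 4 libraries for the 10 genes with the highest (above the dotted line) and the 10 with the lowest edgeR log2 fold change; red marks IP and grey marks Input, circles replicate 1 and squares replicate 2. IP points of the upper 10 genes lie right of both Input points, whereas among the lower 10 the groups overlap in ZNF774 and ZNF789.

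Among the 10 highest, ZNF117, ZNF354B and ZNF469 were not called. ZNF117 stood at 4.27 and 5.97 scaled CPM in the IPs and 2.23 and 1.03 in the Inputs, where the latter was 12 counts (1.62 ± 0.49, edgeR adjusted p = 0.0532; 0.00234 with the replicate block). ZNF469, mutated in a corneal disorder and with a coding sequence of 11859 bases, stood at 22.7 and 42.0 in the IPs and 8.59 and 17.6 in the Inputs. Both groups were higher in replicate 2, so the ratios were close (1.35 and 1.23), and the call was made with the replicate block (adjusted p = 1e-05) but not without it (0.066 by edgeR). ZNF608 was the remaining gene that only the block called, at 1.15 ± 0.34 without it.

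At the other end, ZNF22 had the lowest fold change (chr10:45000923-45005326, + strand). It had 32 and 26 counts in the IPs and 108 and 35 in the Inputs, or 1.54 and 1.48 against 6.19 and 3.00 scaled CPM. The fold change of -1.61 ± 0.49 was not called (edgeR adjusted p = 0.0544), but was with the replicate block (0.000546), as the only depleted gene. Its 201 counts were also the lowest sum that entered, and 37.9% of its exonic bases overlap the pseudogene CEP164P1 on the opposite strand. The other 8 of the lowest 10 were ZNF852 (-0.89), ZNF689 (-0.76), ZNF789 (-0.72), ZNF286A (-0.70), ZNF774 (-0.67), ZNF620 (-0.65), ZNF703 (-0.65) and ZNF385B (-0.63), and none had an adjusted p below 0.113 without the replicate block. With it, all 8 had one between 0.00177 (ZNF689) and 0.0448 (ZNF703), with a fold short of -1. Coding sequences of the 10 lowest ranged from 672 bases (ZNF22) to 1770 (ZNF703).

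The genes with the highest nuclear level were not all recovered alike. The 3 genes with the highest Input level per kilobase of exon were ZNF664 (26.3 CPM per kb), ZNF330 (24.8) and ZNF622 (22.3). ZNF664 stood at 138 and 105 scaled CPM in the IPs and 177 and 157 in the Inputs (-0.46 ± 0.25), and ZNF330, a nucleolar protein, at 47.3 and 47.9 against 66.8 and 59.1 (-0.40 ± 0.21). Both lay below Input in both replicates without being called, whereas ZNF622 was enriched. Over the 191 genes, the fold change and the mean Input level had a rho of 0.077.

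The genes with a well known function formed a list of 25, of which 22 reached the sum (not ZNF10, ZNF410 and ZNF593). Of these, 5 were enriched (ZNF638, ZNF622, ZNF292, ZNF318 and ZNF830), or 22.7% against 10.5% of all genes tested and 13.4% of those with 200 or more counts, and 0 were depleted. The median was 0.67, beside 0.31 for all 191 genes and 0.0079 for all tested. The 22 had longer coding sequences (median 2928 against 1770 bases) and higher Input levels (42.9 against 14.98 scaled CPM) than the 191, and the part of either was not tested. Without Input replicate 2, ZNF318 and ZNF830 lost their calls, and ZNF318 also did without IP replicate 1. ZNF207 (BuGZ), which binds spindle microtubules and BUB3, had the most counts of the 191 (23676), with 554 and 330 scaled CPM in the IPs and 221 and 213 in the Inputs. Its IPs differed more than its Inputs, and 1.03 ± 0.31 missed the adjusted p (0.0544 by edgeR). Of the list, 3 genes passed the adjusted p with a fold under 1: ZNF827 (0.88), which brings the NuRD complex to telomeres, ZNF335 (0.86), a microcephaly gene, and the oncogene ZNF217 (0.83). Values between 0.76 and 0.50 that were not called belonged to ZNF644 (0.76), ZNF148 (0.71), ZNF598 (0.64), a ubiquitin ligase of collided ribosomes, and the partners of ZMYND8, ZNF532 (0.55), ZNF592 (0.55) and ZNF687 (0.50). ZNF384 (0.40), ZNF143 (0.38), an activator of promoters, ZNF451 (0.21), a SUMO ligase, ZNF346 (0.21), which binds double-stranded RNA, ZNF326 (-0.03), ZNF281 (-0.18) and ZNF703 (-0.65) were lower.

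Longer coding sequences went with higher fold changes. Across the 191 genes the log2 fold change and the coding length had a Spearman rho of 0.416 (0.357 with the ratios of replicate 1 and 0.446 with those of replicate 2), against 0.250 with the number of GAAGAA units in the longest transcript, 0.058 with exonic length, 0.168 with the number of fingers and -0.073 with GC content. Given the coding length, the partial rho of the fingers was 0.049, and given the fingers, that of the coding length was 0.389. The rho was 0.440 in the 76 KRAB genes and 0.417 in the 115 others. All protein-coding genes tested had 0.590, and the ZNF genes of chromosome 19 had 0.219. The points share the libraries and genes are not replicates, so these are descriptions.

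Within bins of coding length, medians of the 191 genes were above those of protein-coding genes at large below 3000 bases and under them above. Under 1500 bases (58 genes), the median was -0.02, against -0.33 for protein-coding genes, of which 14.8% were depleted, and 3 of the 58 (5.17%) were enriched, against 3.45%. From 1500 to under 2000 bases (63 genes) medians were 0.26 and 0.15, with 5 enriched (7.94% against 8.52%), and from 2000 to under 3000 (41 genes) they were 0.55 and 0.49, with 4 enriched (9.76% against 17.4%). At 3000 or more (29 genes), the ZNF genes had the lower median (0.67 against 0.91), and 7 of 29 were enriched (24.1%) against 38.9% of protein-coding genes. The protein-coding genes include the ZNF genes, and the differences within bins were not tested.

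**Figure D3:**
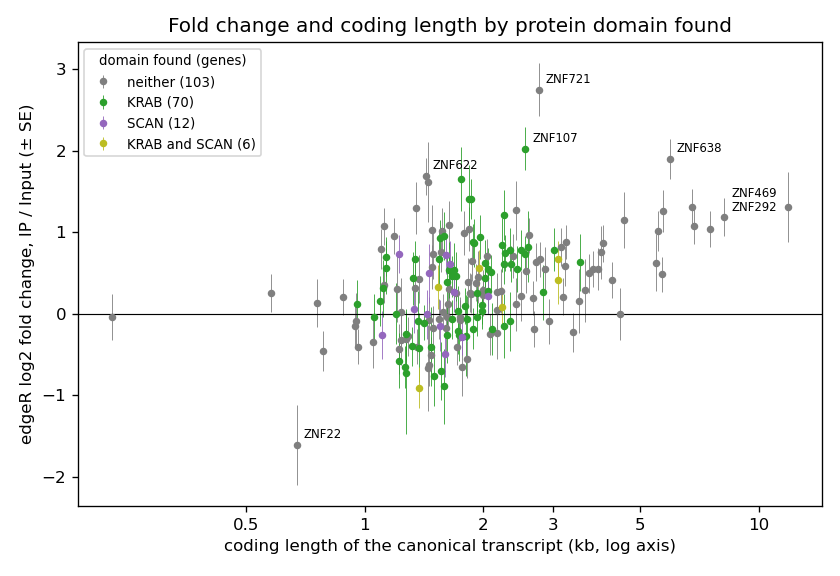
EdgeR log2 fold change of IP over Input with its SE (vertical axis) against the coding length of the canonical transcript in kb (log axis), for each of the 191 genes, coloured by the domain found. Genes above 5 kb all lie above 0, and ZNF721 and ZNF107 stand highest at 2769 and 2556 bases.

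**Figure D4:**
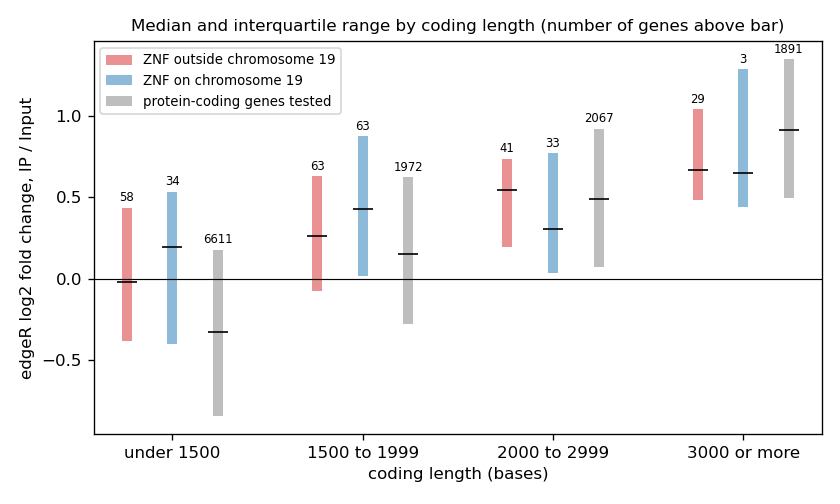
Median (black dash) and interquartile range (bar) of the edgeR log2 fold change in 4 bins of coding length, for ZNF genes outside chromosome 19 (red), on chromosome 19 (blue) and all protein-coding genes tested (grey), with the number of genes above each bar. Medians of the red bars rise from -0.02 to 0.67 and those of the grey bars from -0.33 to 0.91.

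GAA repeats, which the study examined in ORC1-bound RNA, were counted as GAAGAAGAA in the longest transcript on the sense strand. The motif was present in 28 of the 191 genes (14.7%), in 4.51% of the ZNF genes of chromosome 19 and in 13.6% of the tested genes with a transcript. Its complement TTCTTCTTC was in 9 (4.71%), against 5.29% of tested genes. Of the 28 genes, 6 were enriched (21.4%), with a median of 0.27, and of the 163 without it 13 were (7.98%), with a median of 0.31. Of all genes tested, with or without the motif, 10.5% were enriched, and of those with 200 or more counts 13.4%. The number of GAAGAA units, which also counts shorter runs, had a rho of 0.250 with the fold change over the 191 genes (0.220 and 0.276 with the ratios of replicates 1 and 2), and of 0.374 over protein-coding genes. The 6 were ZNF638, ZNF407, ZNF106, ZNF292, ZNF276 and ZNF462. Among genes with a coding sequence of 3000 bases or more, 5 of 9 with the motif were enriched (median 1.04) and 2 of 20 without it (0.63). Under that length, 1 of 19 with it (0.03) and 11 of 143 without it (0.26) were. Of all protein-coding genes tested of 3000 bases or more, with or without the motif, 38.9% were enriched. The shares of all genes were not split by the motif. Genes with the motif were longer even among the long ones (median coding length 5718 against 3852 bases), and the part of length in this contrast was not tested.

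The coding runs of 4 of the 6 enriched genes are shown to place the motif. Each is the first run of 3 or more GAA units inside the canonical coding sequence, with 24 bases on each side, and the run is in capitals.
ZNF638: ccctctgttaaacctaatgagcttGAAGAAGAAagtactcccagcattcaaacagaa
ZNF407: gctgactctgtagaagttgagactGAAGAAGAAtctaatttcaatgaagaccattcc
ZNF292: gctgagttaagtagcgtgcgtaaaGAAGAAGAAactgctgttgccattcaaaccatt
ZNF106: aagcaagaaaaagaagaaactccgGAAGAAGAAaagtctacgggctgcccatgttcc
All 4 runs were of the shortest length counted, 9 bases. The fingers of ZNF107 and ZNF92 above lack such a run, and neither gene had the motif anywhere in its longest transcript. Both fingers do hold the shorter GAAGAA. In the longest transcripts, GAAGAA units numbered 23 in ZNF107 and 11 in ZNF92, beside 22 in ZNF638, so only the longer motif was missing.

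ZNF genes outside chromosome 19 stand in smaller groups. With starts less than 1 Mb from the next, 78 of the 191 formed 16 runs of 3 or more. The run on chr7 from ZNF680 to ZNF92 (chr7:64519878-65401136, 6 genes, 5 with KRAB) had the highest median, 1.29, with ZNF107 and ZNF92 enriched. Its other 4 genes were ZNF117 (1.62), ZNF680 (0.95), ZNF273 (0.46) and ZNF138 (0.12), so all 6 fold changes were above 0, from 0.12 to 2.03. ZNF117 shares 8.7% of its 50-base words with other genes and the other 5 at most 4.73%.

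The largest run, 11 genes near the end of the long arm of chr7 (chr7:149069641-150398630), had a median of 0.57 with 10 of 11 above 0, and only ZNF425 was enriched. On chr16, the 9 genes at chr16:30378106-31917357 and the 7 at chr16:3112560-3443504 had medians of 0.25 and 0.22, ranged from -0.76 to 0.97 and from -0.91 to 0.95, and none was called. The lowest run was ZNF619, ZNF620 and ZNF621 on chr3 (chr3:40477113-40574685), with -0.21, -0.65 and -0.40. ZNF619 and ZNF620 share exons on the same strand, 4.26% and 6.001% of their bases. By chromosome, enriched genes numbered 4 of 25 on chromosome 7 and 2 each on chromosomes 6 and 18 (of 7) and X (of 10), and the 13 genes on each of chromosomes 8 and 10 held none. With 10.5% of all genes tested enriched, and 13.4% of those with 200 or more counts, differences between chromosomes were not tested on such small numbers.

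**Figure D5:**
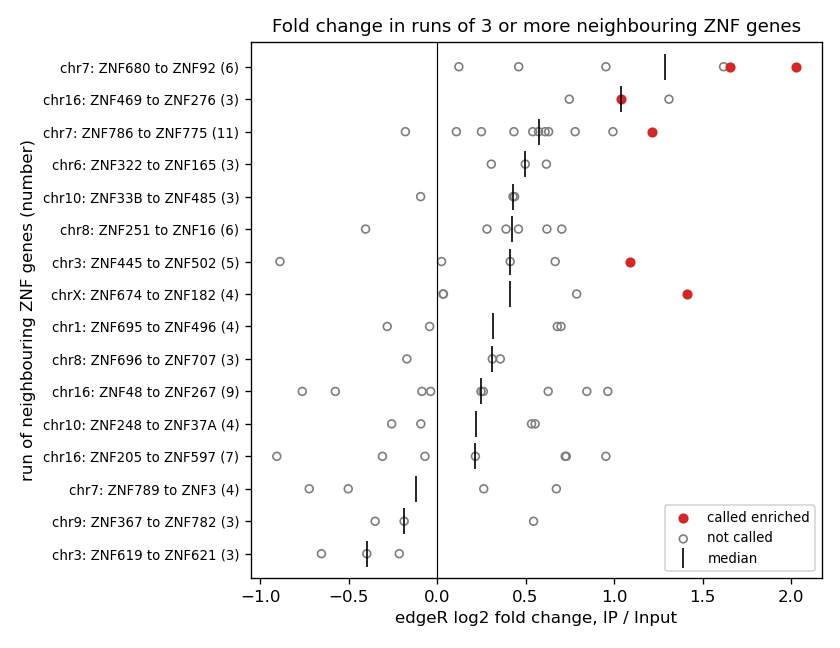
EdgeR log2 fold changes of the ZNF genes in the 16 runs of 3 or more neighbours, 1 row per run named by its chromosome, first and last gene and number of genes; filled red points are enriched genes, open points are not called, and the bar is the median. The run from ZNF680 to ZNF92 on chr7 has the highest median (1.29), and ZNF619 to ZNF621 on chr3 the lowest (-0.40).

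Genes for the partners of KRAB zinc finger proteins were taken as the rest of the pathway, from a list chosen with earlier results known. Of 28 listed corepressor genes 27 were tested, and 11 were enriched (40.7%) and 0 depleted, with a median of 0.97 (0.0079 over all genes). Of all genes tested 10.5% were enriched, and of those with 200 or more counts 13.4%. The highest were DNMT1 (2.26), the maintenance DNA methyltransferase, CHD4 (2.15) and CHD3 (1.84), the remodellers of the NuRD complex, and ATF7IP (1.89) and SETDB1 (1.83), which act as a pair in histone methylation. SETDB1 stood at 153 and 139 scaled CPM in the IPs and 36.3 and 45.8 in the Inputs, so the groups were far apart. ATRX (1.53), SMARCAD1 (1.49), HDAC2 (1.39), MORC2 (1.23), DAXX (1.14) and HDAC1 (1.05) were also enriched. Without Input replicate 2, SMARCAD1, HDAC2, DAXX and HDAC1 lost their calls, the last pair also without IP replicate 1, and CBX5 stood at -1.22. With library size only, 5 corepressor genes were enriched and 1 depleted, where 2.59% and 22.2% of all genes were. The glmTreat fit, which tests the fold against 1, left 0 enriched, as it did over all 14645 genes. TRIM28 itself stood at 1796 and 1359 against 809 and 796, which gave 0.97 ± 0.29 and passed the adjusted p (0.0491 by edgeR) but not the fold. The genes of the heterochromatin proteins were not called, with CBX3 at 1.34 ± 0.46 (edgeR adjusted p = 0.0766, called with the replicate block), CBX1 at -0.31 ± 0.34 and CBX5 at -0.81 ± 0.43. The coding sequences of the 27 genes had a median of 2220 bases, against 1770 in the ZNF genes and 1431 over all genes tested. Of protein-coding genes tested, 17.4% were enriched from 2000 to under 3000 bases and 38.9% at 3000 or more. The median Input level of the 27 was 87.5 scaled CPM, against 19.2 over all genes tested. The part of length or level was not tested.

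How reads in shared sequence were counted is not stated. Of the 191 genes, 14 shared at least 10% of their exonic bases with another gene on the same strand, 31 on the opposite strand, and 15 shared at least 10% of their 50-base words with other transcripts. The 143 with none of these had 17 enriched (11.9%), 0 depleted and a median of 0.39. Over all genes tested the shares were 10.5% enriched and 8.3% depleted, and over those with 200 or more counts 13.4% and 9.5%. In ZNF354B, 15.4% of the 50-base words occur in other transcripts, and in ZNF721, 3.02%.

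Below the sum lay 67 genes, of which 26 had no count in any library. Of the 67, 17 passed the filter and none was called. Just inside the threshold stood ZNF22 (201 counts) with ZNF19 and ZNF774 (216 each), at -1.61, -0.41 and -0.67, and just outside it ZNF596 (197 counts) and ZNF362 (185), at 0.29 and -0.47.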

How the data were processed

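RNA of 2 anti-FLAG immunoprecipitates and 2 nuclear Inputs was sequenced after ribosomal RNA depletion. The authors deposited raw counts of reads for each gene, with no normalization. The submitters' processing notes and the study's methods name Trimmomatic for trimming, STAR for alignment (hg19) and featureCounts for counting over Ensembl genes. The annotation release, the strand setting and the treatment of multiply aligned reads are not given in the sources used here. Names, coordinates and transcripts came from GENCODE v44 (GRCh38, another build), joined by gene identifier, and 11496 of 63677 counted genes had none.

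The counts were tested with edgeR 4.0.16 (R 4.3.3; quasi-likelihood, robust, TMM, filterByExpr, group only) over 14645 genes, with SE from the fold change and F statistic. TMM factors were 0.758 and 0.868 for IP and 1.19 and 1.28 for Input, and the biological coefficient of variation was 0.261. Intervals and tests treat duplicate reads as separate, since reads carry no molecular identifiers. DESeq2 1.42.0 and limma 3.58.1 (voom) were alternatives. The code was tested on simulated counts. KRAB, SCAN, finger and linker patterns were sought in translated canonical transcripts.

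The labels give IP and Input the same RIP replicate number, and deviations from the group means correlated between libraries of 1 number (Pearson r = 0.645 across genes), so the numbers pair the libraries. The 191 genes and the lists were chosen with earlier results of these data known. Named were the 10 highest and 10 lowest fold changes, the 3 highest Input levels per kb, the 2 genes on each side of the sum (ties included), 25 genes of known role, the ends of each domain class and, of 28 corepressor genes, TRIM28, SETDB1, the CBX genes and those called. The other enriched genes, ZNF608 and the members of the named runs were added after their values were seen.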

Additional observations from a re-analysis of the deposited data

How the results depend on the processing

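The 191 genes, their median and their calls rest on 2 libraries a group and on the scaling. With library size only, 4 genes were enriched and 12 depleted (2.59% and 22.2% of all genes), 4 had a ratio above 1 in both replicates, and 5 corepressor genes were enriched and 1 depleted. Upper-quartile factors gave 10 enriched and 2 depleted (7.37% and 10.5% of all genes). Testing the fold against 1 (glmTreat) left 0 of the 191 and 0 corepressor genes enriched, with 8 of the 191 at an unadjusted p below 0.05. This fit called 0 of all 14645 genes enriched and 1 depleted, so its zeros are not particular to these genes. One gene was depleted without the count filter, with at least 1 CPM in 2 libraries and with the replicate block, which called 23 enriched and 13 corepressor genes and otherwise changed only the calls given beside the results. The median of the 191 minus that of all tested genes, 0.30, was 0.67 without the filter and 0.69 with DESeq2, where 31990 genes entered. It was 0.41 at a sum of 500 or more, and, in comparisons added after seeing the data, 0.38 for genes with little shared sequence and 0.21 against tested genes with 200 or more counts.

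Leaving out 1 library at a time gave 15 (without Input replicate 2) to 27 (without Input replicate 1) enriched and 1 to 3 depleted genes, a median difference of 0.26 to 0.42, a rho with coding length of 0.34 to 0.42, 7 (without Input replicate 2) to 14 enriched corepressor genes and 0 to 1 depleted. In these fits the lone library is assumed to vary like the other group. Without Input replicate 2, 12 of the 19 enriched genes remained. Of the values of 58 named genes under 12 alternatives (glmTreat left out), 610 kept their direction and side of the threshold, 27 lost and 47 gained the call, and 12, of 10 genes, changed sign, none of them called in either fit. With library size only these were ZNF532 (-0.053), ZNF592 (-0.054), ZNF687 (-0.10), ZNF384 (-0.22), ZNF143 (-0.21), ZNF451 (-0.40) and ZNF346 (-0.39). With 1 library left out, ZNF789 ranged from -1.89 to 0.31 (the latter lacking Input replicate 2). On leaving out IP replicate 2 or Input replicate 1, ZNF326 stood at 0.050 and 0.25 (-0.39 lacking Input replicate 2) and CBX1 at 0.046 and 0.085 (-0.75 lacking Input replicate 2). ZNF721, ZNF107, ZNF638 and ZNF622 stayed enriched under every alternative but glmTreat.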
